A study of Mus musculus with 96 samples.

Results

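The genes described here encode 9 enzymes that make, phosphorylate or use up nicotinamide adenine dinucleotide (NAD), the electron carrier of energy metabolism and the substrate of signalling enzymes such as sirtuins and PARPs. They were picked by name, and all 9 (Nampt, Nmnat1, Nmnat2, Nmnat3, Naprt, Nnmt, Nadk, Qprt and Cd38) were found among the 56748 genes of the count table. RNA was sequenced from liver, skeletal muscle and cerebral cortex of mice that ate ad libitum (AL) or were kept on intermittent fasting (IF). Male mice carry the numbers 1 to 16 and female mice the numbers 25 to 40, with 8 mice in each diet and sex. Per the study's methods, the male mice were C57BL/6, 6 weeks old at the start, and fasted for 16 h each day over 4 months in the IF group. By the same methods the fast covered all hours of darkness. Male IF mice could thus eat only while the lights were on, and male AL mice at any hour. The male mice were killed over a span of hours in the morning, around the scheduled end of the fast. They were perfused with saline before the tissues were taken. The strain, age, hours of fasting and length of the regimen of the female mice are not given in the sources used here, so sex cannot be told apart from any other difference between the 2 sets of mice.

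The table holds 96 libraries, of which 95 were used, and each of these had between 26097314 and 49838004 reads counted on genes. Tissue labels were checked with marker genes. Hepatocyte markers summed to 65541 ± 10357 CPM (counts scaled to library size, mean ± SD, n = 8) in male AL liver and to 0.704 ± 0.651 CPM in male AL muscle, while skeletal muscle markers summed to 128578 ± 4588 CPM in that muscle and to 0.612 ± 0.660 CPM in that liver. Cortex markers summed to 8732 ± 529 CPM in male AL cortex (n = 7). The hepatocyte list was not near 0 in every cortex, with sums of 4.72 to 3159 CPM in male AL cortex and up to 4353 CPM in female IF cortex, nearly all of it Ttr. One library, AL replicate 1 of male cortex, went against its label. Its Xist level was 216 CPM, against at most 0.230 CPM in the other male cortex libraries and 192 to 317 CPM in female cortex, and the Y-linked genes Ddx3y, Uty, Eif2s3y and Kdm5d had 0 counts. Of all cortex libraries, its counts lay nearest to IF replicate 8 of female cortex (r = 0.996 over log2 CPM across genes). No 2 cortex libraries of the same group were this close, with r at most 0.993 and a median chi-square of at least 2.24, against 1.53 for this pair and 0.455 for sampling noise. With IF replicate 7 of female cortex its r was 0.994, also above those within groups, at a median chi-square of 2.32. Library AL replicate 1 of male cortex was left out of the values that follow, so male AL cortex has n = 7. The diet test of male cortex was also run with it. No other library went against its labelled sex.

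Cells rebuild NAD mainly from nicotinamide, which Nampt turns into nicotinamide mononucleotide in the rate-limiting step of the salvage route. Nmnat1, Nmnat2 and Nmnat3 then add the adenylyl group, in the nucleus, in the Golgi and axons, and in mitochondria, respectively. Nicotinic acid enters through Naprt, and quinolinate, the end product of tryptophan breakdown through kynurenine, enters through Qprt. The kinase Nadk phosphorylates NAD to NADP. Nnmt methylates nicotinamide and so takes it out of the salvage route, and Cd38 is a glycohydrolase that cleaves NAD. Liver is the organ with the fullest set of these routes and exports nicotinamide to other tissues. Hepatic Nampt is also known as an output of the circadian clock.

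**Figure D1:**
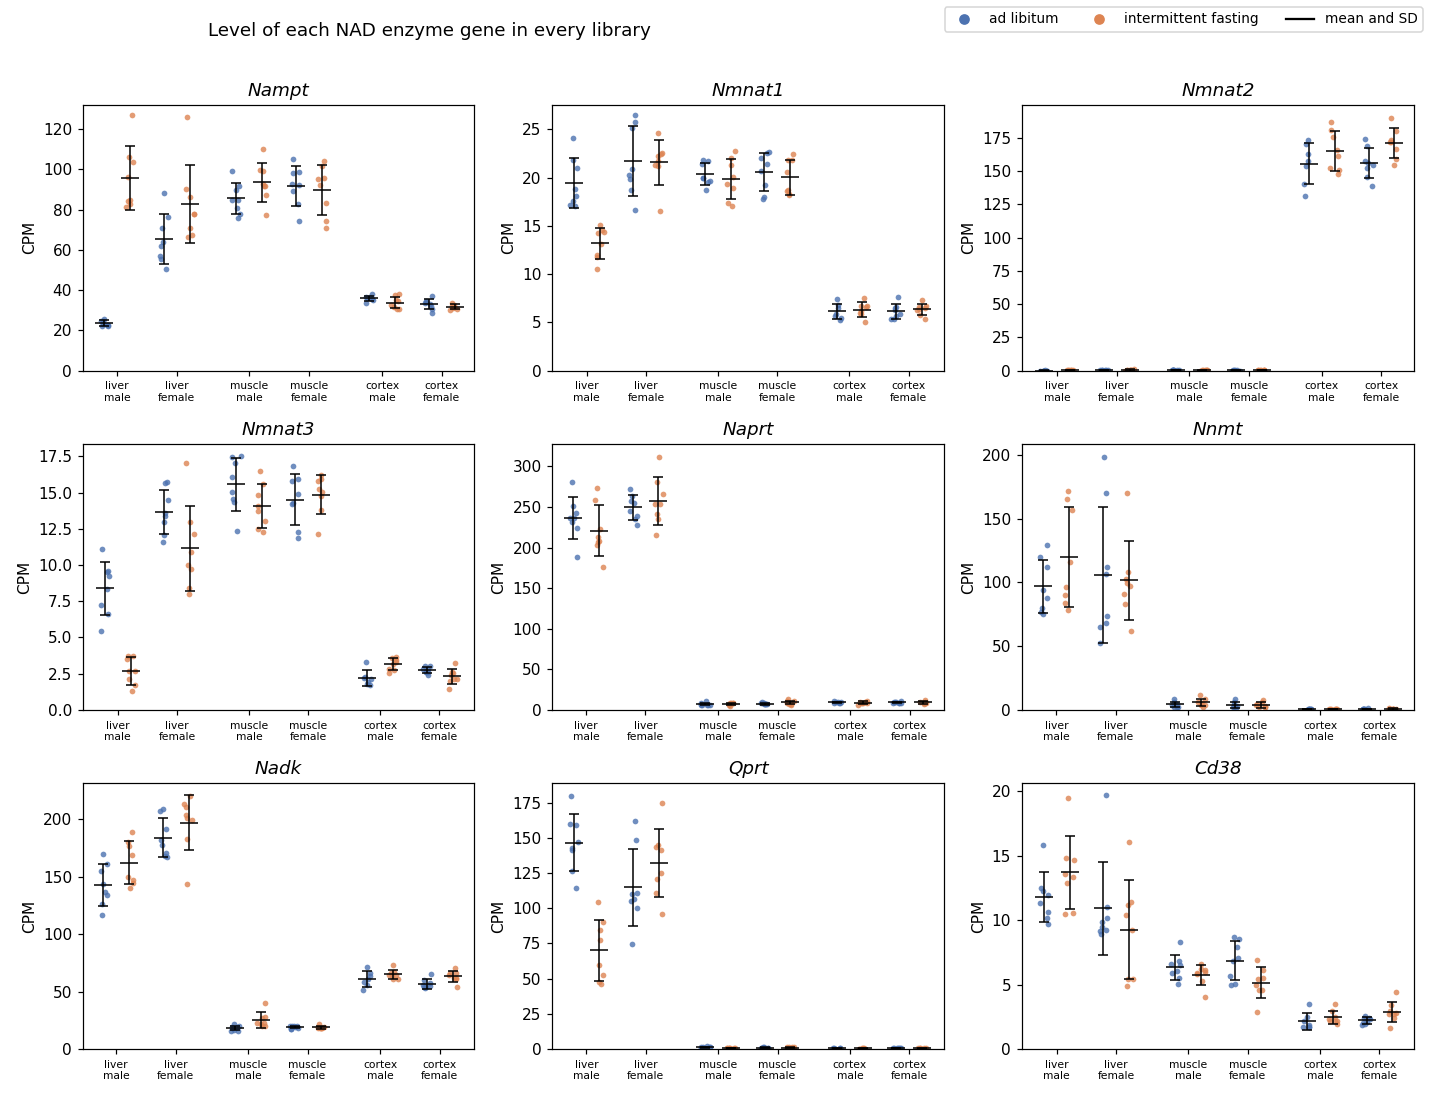
Level of each gene in every library, in CPM on a linear axis that starts at 0, for AL (blue) and IF (orange) mice by tissue and sex; black bars show the mean and SD. Nampt in male AL liver sits between 22.0 and 25.8 CPM, apart from male IF liver at 81.4 to 127 CPM, and Nmnat2 is high in cortex.

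Each gene had its own pattern over the tissues. CPM values were scaled within each tissue, so levels in different tissues are set side by side as a description and were not tested. Naprt, Nnmt, Qprt, Nadk and Cd38 had their highest mean in liver in both sexes and diets. Qprt was the sharpest of these, with 146 ± 20.3 CPM in male AL liver, 1.17 ± 0.502 CPM in muscle and 0.579 ± 0.290 CPM in cortex. Nnmt had 96.7 ± 20.9, 4.27 ± 2.27 and 0.660 ± 0.223 CPM in the same order, and Naprt had 237 ± 26, 7.17 ± 1.72 and 9.48 ± 0.717 CPM. The muscle and cortex ranges of Naprt and Qprt overlapped, whereas liver lay above both without overlap. Nadk followed the order liver, cortex, muscle without overlap in either sex or diet, at 143 ± 18, 61.1 ± 6.74 and 18.4 ± 2.05 CPM in male AL mice. Cd38 had 11.8 ± 1.92, 6.35 ± 0.978 and 2.16 ± 0.651 CPM in male AL liver, muscle and cortex.

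The 3 Nmnat genes differed in where they were high. Nmnat2, which neurons use to maintain axons, had 156 ± 15.4 CPM in male AL cortex and means under 0.6 CPM in every group of liver and muscle. Nmnat1 lay at 19.5 ± 2.59 CPM in male AL liver and 20.3 ± 1.15 CPM in muscle, with overlapping ranges, and at 6.14 ± 0.786 CPM in cortex. Nmnat3 was highest in muscle in male mice, at 15.6 ± 1.81 CPM in AL, while its muscle and liver ranges overlapped in female mice (14.5 ± 1.75 and 13.7 ± 1.52 CPM in AL), and it was lowest in AL cortex, at 2.19 ± 0.540 CPM. Nampt had a different order in the sexes. In male AL mice it ran from muscle (85.6 ± 7.72 CPM) through cortex (35.9 ± 1.42 CPM) to liver (23.5 ± 1.46 CPM) without overlap, and in female AL mice liver (65.6 ± 12.4 CPM) lay above cortex (33 ± 2.54 CPM) and overlapped muscle (91.8 ± 9.77 CPM).

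Genes can be compared with each other only per length of transcript. Per kilobase of the gene length in the table, male AL liver held 101 ± 11.1 CPM per kb of Naprt, 61.4 ± 13.2 of Nnmt, 55.4 ± 7.68 of Qprt and 38.1 ± 4.80 of Nadk. Nmnat1 followed with 6.41 ± 0.851 and Nampt with 4.65 ± 0.288 CPM per kb. In male AL muscle Nampt led with 16.9 ± 1.53 CPM per kb, ahead of Nmnat1 at 6.70 ± 0.377 and Nadk at 4.92 ± 0.547. In male AL cortex Nmnat2 led with 26.9 ± 2.67 CPM per kb, followed by Nadk at 16.3 ± 1.80 and Nampt at 7.10 ± 0.280. The gene with the highest level per length thus differed between the tissues.

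Male liver showed the widest response to IF. Nampt rose and Nmnat1, Nmnat3 and Qprt fell, and for each of these 4 genes the range of IF libraries lay wholly outside the AL range. In all, 8 of the 9 genes passed the filter on low counts there, and 1 was higher and 3 were lower at an adjusted p under 0.05 (edgeR quasi-likelihood test, adjusted over all 16204 genes tested). Across all genes tested, 23.5% were higher and 21.1% were lower by the same rule, so a share of this size is common in male liver. The median log2 change was 0.07 over the 8 genes and 0.06 over all genes.

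Nampt (chr12:32869544-32903348, plus strand, GRCm39), the entry of the salvage route, had 22.0, 23.0 and 25.8 CPM as the lowest, median and highest of the 8 male AL livers, and 81.4, 90.4 and 127 CPM in the 8 male IF livers. Every IF library lay above every AL library, and the AL libraries were tightly grouped. The log2 fold change was 2.06 (SE 0.11, adjusted p = 8.28e-13), a 4.17-fold rise. Leaving out any 1 of the 16 libraries kept it between 1.95 and 2.09.

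Downstream of Nampt, the nuclear enzyme Nmnat1 (chr4:149552029-149569659, minus strand) had 17.0, 18.5 and 24.1 CPM in male AL liver and 10.6, 13.7 and 15.1 CPM in IF liver. All 8 IF libraries were below all 8 AL libraries, and the log2 fold change was -0.52 (SE 0.11, adjusted p = 4.15e-04). The mitochondrial enzyme Nmnat3 (chr9:98169488-98302491, plus strand) had 5.45, 8.82 and 11.1 CPM in AL and 1.28, 2.67 and 3.75 CPM in IF, again without overlap. Its log2 fold change of -1.61 (SE 0.22, adjusted p = 1.82e-06) was the largest fall among the members in male liver and came with 47 to 166 reads in the IF libraries. The salvage gene thus moved up while the 2 Nmnat genes tested in this tissue moved down. Nmnat2 did not pass the filter in male liver, with 0 to 15 reads in the AL libraries and 5 to 38 in the IF libraries, and was not tested there.

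Among the other entries to NAD, Qprt (chr7:126706286-126721398, minus strand), which ends the route from tryptophan, had 115, 145 and 179.8 CPM in male AL liver and 46.4, 68.4 and 104 CPM in IF liver. All 8 IF libraries were lower than all AL libraries, and the log2 fold change was -1.03 (SE 0.15, adjusted p = 8.06e-06), a 2.04-fold fall. Naprt (chr15:75762805-75766330, minus strand), the entry for nicotinic acid, had 237 ± 26 CPM in AL and 220.5 ± 31.4 CPM in IF, a log2 difference of -0.07 (SE 0.10, adjusted p = 0.607). The 2 entries other than salvage therefore gave unlike values, with overlapping ranges for Naprt alone.

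The kinase and the consuming enzymes did not pass the threshold in male liver. Nadk (chr4:155646835-155675458, plus strand) had 143 ± 18 CPM in AL and 162 ± 18.8 CPM in IF, with 7 of 8 IF libraries above the AL median and an adjusted p of 0.0900. Nnmt (chr9:48503177-48516453, minus strand) had 96.7 ± 20.9 and 119.7 ± 39 CPM, with an adjusted p of 0.117, and its IF libraries spread from 78.0 to 172 CPM. Cd38 (chr5:44025895-44069717, plus strand), which is found on immune and other cells, had 11.8 ± 1.92 and 13.7 ± 2.84 CPM, with an adjusted p of 0.141. For all 3 the IF range overlapped the AL range.

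**Figure D2:**
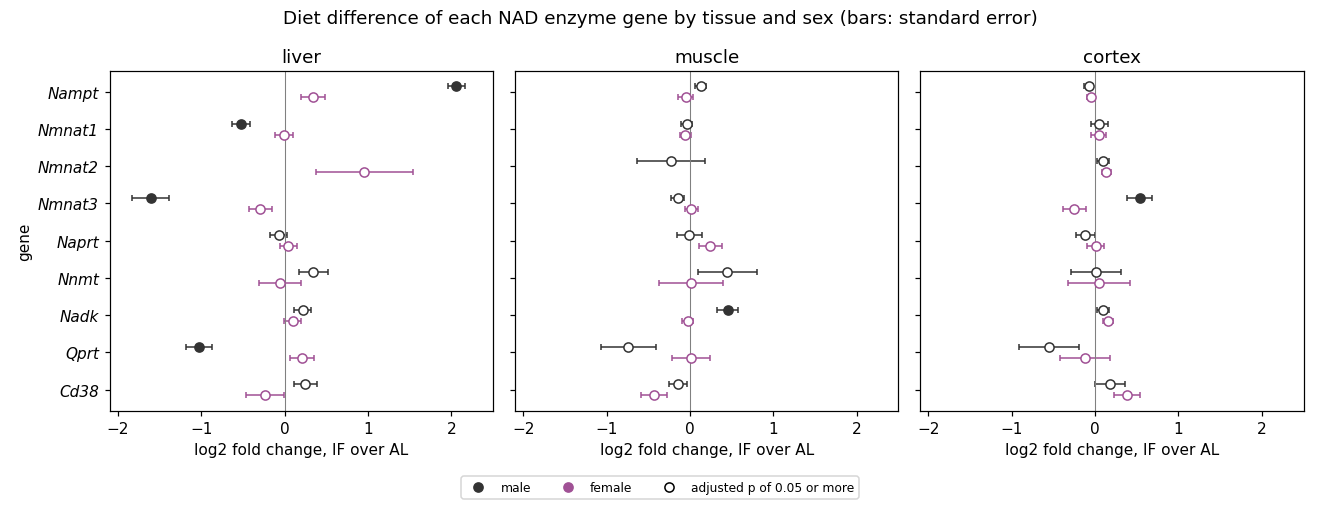
Log2 fold change of IF over AL for each gene in the 3 tissues, male mice in black and female mice in purple, with bars for the standard error; filled points have an adjusted p under 0.05 and genes that did not pass the filter have no point. The 6 filled points all belong to male mice, 4 of them in liver, where Nampt stands at 2.06.

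In female liver the same contrast gave no member past the threshold. With edgeR 0 of the 9 genes were called, and 2 of them, Nampt and Nmnat3, had an unadjusted p under 0.05, while DESeq2 called 0 and had 1, Nampt, at an unadjusted p under 0.05. Of all 15938 genes tested by edgeR, 0% were higher and 0% were lower at the adjusted threshold, 919 had an unadjusted p under 0.05, and DESeq2 called 6 genes. Nampt had 50.7, 63.0 and 88.4 CPM in the female AL livers and 66.4, 78.1 and 126 CPM in the IF livers, and the ranges overlapped. All 8 IF libraries were above the AL median, with a log2 difference of 0.34 (SE 0.14, adjusted p = 0.827). Qprt had 115 ± 27.7 CPM in female AL and 132 ± 24.3 CPM in IF liver, and Nmnat1 had 21.7 ± 3.62 and 21.6 ± 2.30 CPM. Nmnat3 had 13.7 ± 1.52 and 11.2 ± 2.92 CPM.

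The difference in response between the sexes was tested itself in liver. Of the 9 genes, 4 differed at an adjusted p under 0.05, beside 23.7% of the 17658 genes tested. The response of Nampt was 1.69 lower on the log2 scale in female than in male mice (female minus male -1.69, SE 0.17, adjusted p = 4.89e-09). Those of Qprt (1.26, SE 0.22, adjusted p = 4.50e-05), Nmnat3 (1.35, SE 0.25, adjusted p = 1.16e-04) and Nmnat1 (0.55, SE 0.15, adjusted p = 0.00669) were higher in female mice, in which none of these falls was called. The AL livers are where the sexes lay apart for Nampt. The highest of 8 male AL livers had 25.8 CPM and the lowest of 8 female AL livers 50.7 CPM, whereas the IF livers of the sexes overlapped. Nmnat3 lay apart in both diets, at most 11.1 CPM in male and at least 11.6 CPM in female AL liver, and 1.28 to 3.75 CPM in male and 8.02 to 17.1 CPM in female IF liver. These levels of the sexes were not tested against each other.

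Muscle moved less. In male muscle all 9 genes were tested and 1, Nadk, was higher in IF, beside 11.5% of 15025 genes higher and 11.6% lower. The median log2 change was -0.04 over the 9 genes and 0.01 over all genes. Nadk, which makes NADP for biosynthesis and for protection from oxidants, had 15.9, 18.9 and 21.7 CPM in male AL muscle and 19.8, 22.6 and 40.1 CPM in IF muscle. The ranges overlapped, 6 of the 8 IF libraries were above every AL library, and the log2 fold change was 0.45 (SE 0.12, adjusted p = 0.0130). The highest value came from IF replicate 4, and without it the log2 fold change was 0.32. Nampt, which is the most abundant of the 9 per length in muscle, had 85.6 ± 7.72 CPM in AL and 93.7 ± 9.72 CPM in IF (log2 difference 0.13, SE 0.07, adjusted p = 0.191).

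Markers of fat cells were higher in the same male IF muscles. Of 5 adipocyte genes, 4 were higher at an adjusted p under 0.05 (Adipoq, Plin1, Cidec and Cfd), and Lep was not. The 5 genes together had 31.1 to 344 CPM over the male AL muscles and 115 to 1760.3 CPM over the IF muscles, with Cfd the most abundant and none of the 5 at 0 throughout a group. The library with the highest Nadk, IF replicate 4, also had the highest adipocyte sum, 1760.3 CPM, and IF replicate 3 had the lowest IF sum, 115 CPM, with a Nadk level of 22.3 CPM, above every AL library. Of 10 leukocyte markers, 3 fell (Cd3e, Lyz2 and Csf1r), and the list summed to 66.4 ± 14.7 CPM in AL and 44.6 ± 7.51 CPM in IF. Of 6 fibroblast and stellate cell markers 5 were tested and 3 fell, of 5 endothelial markers 1 fell, of 5 skeletal muscle markers 2 fell (Ckm and Mb), and of 5 erythrocyte markers none passed the test. The part of these cells in the Nadk difference was not tested, and in bulk tissue a change in the number of cells cannot be told apart from a change of RNA per cell.

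In female muscle 8 of the 9 genes were tested, and edgeR and DESeq2 each called 0, with 1 gene, Cd38, at an unadjusted p under 0.05 by either tool. Across all 15308 genes, edgeR called 0.00653% higher and 0% lower and had 1644 at an unadjusted p under 0.05, and DESeq2 called 91 genes, 55 higher and 36 lower. Cd38 had 6.84 ± 1.51 CPM in female AL and 5.13 ± 1.20 CPM in IF muscle, with all 8 IF libraries below the AL median (log2 difference -0.43, SE 0.16, adjusted p = 0.355). Nadk had 19.2 ± 1.10 and 19.0 ± 1.26 CPM. Its response differed between the sexes (female minus male -0.46, SE 0.14, adjusted p = 0.0211), the only one of the 9 to do so in muscle, where 14.2% of 16346 genes differed.

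In male cortex 1 of the 9 genes, Nmnat3, was higher in IF, beside 3.79% of 18462 genes higher and 3.43% lower. The number called over all genes, 1332, depended on the libraries and the fit. It was 294 with the library that went against its label, 382 with the replicate number as a block, 498 without AL mouse 2 and IF mouse 10, which leaves 6 AL and 7 IF mice, and 2259 with DESeq2. Without 1 library it was 638 (AL replicate 2), 766 (AL replicate 3), 771 (AL replicate 5), 877 (IF replicate 3), 866 (IF replicate 5), 823 (IF replicate 6) or 2060.0 (IF replicate 4), and within 1.5 times of 1332 without any other. The median log2 change was 0.05 over the 9 genes and 0.00 over all genes. Nmnat3 had 1.71, 2.12 and 3.31 CPM in AL and 2.56, 3.22 and 3.67 CPM in IF cortex, with all 8 IF libraries above the AL median but overlapping ranges. The log2 fold change was 0.54 (SE 0.15, adjusted p = 0.0361), opposite in sign to the fall in male liver, and rested on 65 to 118 reads per library. It was 0.51 with the library that went against its label, where the adjusted p was 0.0618 (0.00815 to 0.114 over all settings tried), and leaving out 1 library at a time gave 0.48 to 0.66, with an adjusted p of 0.00981 to 0.0825. The adjusted p went over 0.05 in 10 of these 15 fits, those without AL replicate 2, 3, 4, 5 or 8 or without IF replicate 1, 3, 5, 7 or 8. The call therefore depends on most single libraries. Nmnat2, the most abundant Nmnat gene of cortex, had 131, 158 and 173 CPM in male AL and 148, 164 and 187 CPM in IF cortex (log2 difference 0.09, SE 0.07, adjusted p = 0.486). Nampt had 35.9 ± 1.42 and 33.9 ± 2.87 CPM, and Nadk 61.1 ± 6.74 and 65.1 ± 4.05 CPM.

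In female cortex edgeR and DESeq2 each called 0 of the 9 genes, and each had 3 (Nadk, Nmnat2 and Cd38) at an unadjusted p under 0.05. Over all 18403 genes edgeR called 0% higher and 0.0109% lower, which is 2 genes, and had 2069 at an unadjusted p under 0.05, and DESeq2 called 73, 32 higher and 41 lower. Without AL replicate 2 edgeR called 254 genes, 202 higher and 52 lower, and without any other single library it called 0 to 2. Nmnat3 had 2.75 ± 0.224 CPM in female AL and 2.31 ± 0.534 CPM in IF cortex. Its response differed between the sexes (female minus male -0.79, SE 0.20, adjusted p = 0.0306), beside 2.03% of 19547 genes, but was not called without the filter on low counts or with the replicate number as a block. That share is 397 genes, and the number was 706 with DESeq2 and 220 of 38227 without the filter. Nmnat2 had 156 ± 11.5 and 171 ± 11.4 CPM, with 7 of 8 female IF libraries above the AL median (log2 difference 0.13, SE 0.06, adjusted p = 0.412).

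The difference in response between tissues was tested in male mice with the mouse, taken from the library number, as a block. Between liver and muscle Nampt, Nmnat1 and Nmnat3 differed, beside 31% of 21608 genes, and between liver and cortex the same 3 genes differed, beside 26.7%. Nampt responded 1.88 higher on the log2 scale in liver than in muscle (SE 0.11, adjusted p = 1.52e-14) and 2.11 higher than in cortex (SE 0.11, adjusted p = 3.19e-15). Nmnat3 responded -1.54 against muscle (SE 0.20, adjusted p = 2.09e-07) and -2.28 against cortex (SE 0.21, adjusted p = 5.77e-10). Between muscle and cortex 1 gene, Nmnat3, differed (-0.74, SE 0.21, adjusted p = 0.0347), beside 3.8%, and it was not called without the mouse as a block or without the filter on low counts. Nmnat2 also passed the threshold against muscle and against cortex, but this is not read as a difference, since the gene had too few reads to be tested in male liver alone and entered the joint fit through other tissues. For Qprt the liver response did not differ past the threshold from that in muscle (adjusted p = 0.427) or cortex (adjusted p = 0.368), where the gene had means of 1.17 CPM or less in every group.

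In female mice 0 of the 9 genes differed between any pair of tissues by edgeR. The members at an unadjusted p under 0.05 numbered 3 between liver and muscle, 2 between liver and cortex and 1 between muscle and cortex, and DESeq2 was not run for these contrasts. The 3 were Nampt, Nmnat2 and Nmnat3. Nmnat2 is not read as a difference, since it did not pass the filter in female muscle alone, with 3 to 28 reads in the AL libraries. Over all 21292 genes, 1648, 2037 and 1160 had an unadjusted p under 0.05, and 0.0047%, 0% and 0.0047% passed the adjusted threshold. These shares are 1, 0 and 1 genes, and without the library number as a block 13, 12 and 1 genes passed. Nampt responded 0.36 higher in liver than in muscle (SE 0.15, adjusted p = 0.545).

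Beside the 9 enzymes, 40 other genes of NAD metabolism were followed in 5 lists. In male liver 38 of the 40 were tested, 9 were higher and 18 were lower in IF, beside 23.5% and 21.1% of all genes. Their median log2 change was -0.31, against 0.06 over all genes. In female liver 36 were tested, edgeR and DESeq2 each called 0, and each had 4 at an unadjusted p under 0.05, beside 919 of 15938 genes in all by edgeR.

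The first list holds genes of tryptophan breakdown, the route that leads to quinolinate, the substrate of Qprt, and its side branches. Of 11 genes 10 were tested, 7 fell (Ido2, Kmo, Kynu, Haao, Acmsd, Kyat1 and Aadat) and 1, Kyat3, rose, beside 21.1% of all genes lower and 23.5% higher, with a median log2 change of -0.61 against 0.06 over all genes. Ido2, an indoleamine dioxygenase, went from 71.0 ± 13.7 CPM in AL to 27.7 ± 5.94 CPM in IF (log2 fold change -1.33, SE 0.13, adjusted p = 2.22e-08). Kynu, the kynureninase, went from 108 ± 15.9 to 49.1 ± 12.9 CPM (log2 fold change -1.10, adjusted p = 3.59e-07). Haao, which makes the direct precursor of quinolinate, went from 868 ± 56.7 to 538 ± 74.8 CPM, and Kmo from 221 ± 26.2 to 142 ± 16.1 CPM. The libraries of the diets did not overlap for these 4 genes. Acmsd, which diverts that precursor away from NAD, also fell, from 15.5 ± 3.58 to 9.90 ± 3.32 CPM. Tdo2, the main tryptophan dioxygenase of liver, had 471 ± 90.8 and 509.6 ± 107 CPM (adjusted p = 0.396), and Ido1 had 0 counts in every liver library. Kyat1 and Aadat, which make kynurenic acid, are also off the route to quinolinate. The response of 5 of the 10 genes (Ido2, Kmo, Kynu, Haao and Kyat1) differed between the sexes in liver, beside 23.7% of all genes.

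Of the 4 other synthesis genes, 3 were tested in male liver. Nmrk1, a kinase for nicotinamide riboside, rose from 44.0 ± 7.20 to 66.0 ± 14.3 CPM, and Slc25a51, the mitochondrial NAD carrier, rose from 73.0 ± 18.7 to 132 ± 32.3 CPM (log2 fold change 0.89, SE 0.16, adjusted p = 1.07e-04). Nadsyn1, which makes NAD by amidation in the last step of the routes through Naprt and Qprt, after the Nmnat step, fell from 44.9 ± 8.81 to 32 ± 7.65 CPM. The riboside kinase of muscle, Nmrk2, had 0 counts in male liver and fell in male muscle from 212 ± 59.1 to 96.5 ± 28.4 CPM (log2 fold change -1.14, SE 0.20, adjusted p = 9.94e-04). All 8 male IF muscles were below the AL median of Nmrk2. In female muscle it had 70.9 ± 23.3 and 59.3 ± 24.4 CPM, and the test of male against female response gave an adjusted p of 0.0836.

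Of the 5 genes of the NADP and NAD(P)H repair list, 3 were higher in male liver (Nnt, Naxd and Naxe) and 2 lower (Nadk2 and Nudt12), beside 23.5% and 21.1% of all genes. Naxe was not called without AL mouse 2 and IF mouse 10, where its adjusted p was 0.102 (0.0202 to 0.102 over all settings tried). Naxd, which repairs hydrated NADH, rose from 63.5 ± 6.37 to 90.8 ± 7.03 CPM without overlap, and Nudt12, which cleaves NADH and caps of RNA, fell from 47.9 ± 6.67 to 25.5 ± 1.53 CPM without overlap. The mitochondrial NAD kinase Nadk2 fell in male liver from 119 ± 21.4 to 81.8 ± 8.85 CPM and rose in male muscle from 19.8 ± 3.24 to 23.9 ± 3.31 CPM (adjusted p = 0.0461). Nnt, the mitochondrial transhydrogenase, had only 0.782 ± 0.396 CPM in male AL and 1.58 ± 0.459 CPM in IF liver.

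Of 16 other glycohydrolase and PARP genes, all tested in male liver, 2 rose (Bst1 and Parp8) and 5 fell (Parp1, Parp2, Parp3, Parp9 and Parp10), beside 23.5% and 21.1% of all genes, so the number called in all is near that share. Parp9 was not called without AL mouse 2 and IF mouse 10, where its adjusted p was 0.0516 (0.0126 to 0.0516 over all settings tried). Parp3 changed most among the genes that fell, from 91.5 ± 16.1 to 37.2 ± 10.6 CPM (log2 fold change -1.26, SE 0.16, adjusted p = 8.90e-07). Parp1, the chief PARP of the nucleus, fell from 21.5 ± 1.5 to 16.5 ± 2.06 CPM. Bst1, the paralogue of Cd38, stayed under 1 CPM on average in both diets. In male muscle 3 of 15 tested genes of this list rose (Parp4, Parp8 and Tnks) and 0 fell, beside 11.5% and 11.6% of all genes. In male cortex 0 of 15 rose and 1, Tnks2, fell, from 89.6 ± 5.88 to 75.8 ± 5.06 CPM, beside 3.79% and 3.43%. Tnks2 was not called with the replicate number as a block, without AL mouse 2 and IF mouse 10 or with the library that went against its label, with adjusted p from 0.0015 to 0.0669 over all settings tried.

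Of 4 genes of nicotinamide oxidation and extracellular nucleotide breakdown, 3 fell in male liver and 1 rose, beside 21.1% of all genes lower and 23.5% higher. Aox3 and Aox1, the oxidases that turn methylated nicotinamide, the product of Nnmt, into pyridones, went from 535 ± 87.4 to 275 ± 80.9 CPM and from 221 ± 58.9 to 134 ± 50.7 CPM. In male muscle Aox1 rose instead, from 17.5 ± 2.52 to 22.5 ± 3.37 CPM. Nt5e, the ectonucleotidase CD73, fell from 4.57 ± 1.90 to 1.79 ± 0.763 CPM. Enpp1, an ectophosphodiesterase that cleaves nucleotides, rose from 14.1 ± 2.74 to 25.2 ± 1.75 CPM without overlap.

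**Figure D3:**
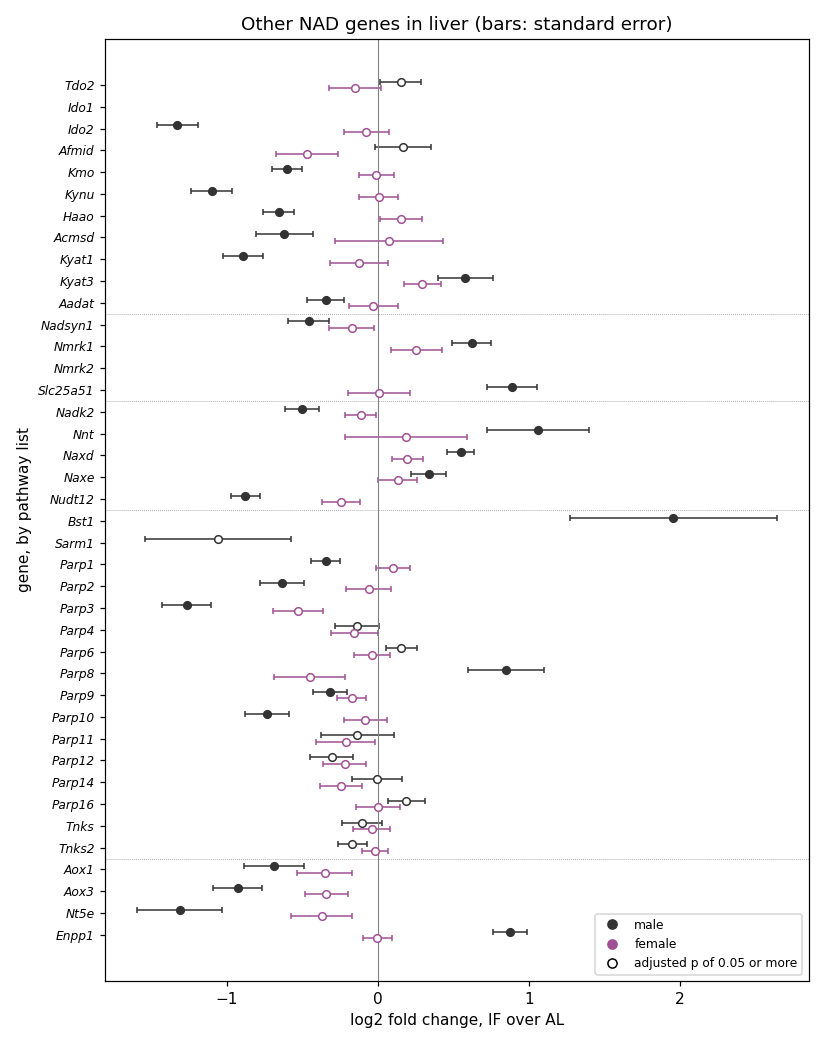
Log2 fold change of IF over AL in liver for the 40 other NAD genes, by list from the kynurenine route at the top to extracellular breakdown at the bottom, male mice in black and female mice in purple, with bars for the standard error. Filled points, with an adjusted p under 0.05, are 9 higher and 18 lower genes, all in male mice, and genes that did not pass the filter have no point.

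In the other tissues fewer of the 40 genes were called. Male muscle had 5 higher and 3 lower of 31 tested, beside 11.5% and 11.6% of all genes, and male cortex had 0 higher and 1 lower of 34, beside 3.79% and 3.43%. In female muscle 34 were tested and in female cortex 33. EdgeR and DESeq2 each called 0 in these tissues, with 2 and 3 genes at an unadjusted p under 0.05, beside 1644 of 15308 and 2069 of 18403 genes in all by edgeR.

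Markers of other cells also moved in male liver. Of 5 erythrocyte markers 3 rose (Hba-a1, Hbb-bs and Hbb-bt), and the list summed to 406 to 915 CPM over the AL livers and 674 to 6345 CPM over the IF livers, with Hba-a1 the most abundant. Of 5 endothelial markers 3 rose, with a sum of 117 ± 11.3 CPM in AL and 184 ± 43.4 CPM in IF and Egfl7 the most abundant, and of 6 fibroblast and stellate cell markers 2 rose, with sums of 110.3 ± 14.1 and 142 ± 28.3 CPM and Dcn the most abundant. Of 10 leukocyte markers none passed the test, with sums of 71.9 ± 10.9 and 83.3 ± 38.9 CPM. Of 5 hepatocyte markers 1, Apoa1, fell, and the list summed to 65541 ± 10357 CPM in AL and 51497 ± 9347 CPM in IF. Of 5 adipocyte genes 2 were tested and 1, Cfd, fell, and Lep had 0 counts in the IF livers. The part of other cells in the liver differences was not tested. In male cortex 1 of 6 cortex markers, Mbp, rose, and 1 of the 8 leukocyte markers tested, Ptprc, fell.

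The genes whose levels over the 12 groups of tissue, sex and diet lay nearest to each member were found by the root mean square difference of centred log2 CPM, among 15724 genes. Nampt lay nearest to Mpc2, a subunit of the mitochondrial pyruvate carrier, with a difference of 0.27, followed by Mrpl15 and Gpcpd1. The median difference of all genes from Nampt was 1.53. Nmnat1 lay nearest to Ddo, Rest and Dram2, from 0.13, and Nmnat3 to Gm9895, E030042O20Rik and Eif4ebp2, from 0.40. Nmnat2 was nearest to the neuronal genes Kcnh4, Dlg2 and Vip, from 0.33. Naprt was nearest to Dap, Gm16174 and C2, from 0.16, and Qprt to B430119L08Rik, Gm5524 and Hand2os1, from 0.30. Nadk was nearest to Abhd14b, Tprkb and Coasy, from 0.15, Nnmt to Lrg1, Bik and Fcna, from 0.18, and Cd38 to Ldhd, Mif4gd and Sp100, from 0.20.

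All 9 genes are protein coding in the annotation, under the gene identifiers of the count table. Naprt shares its strand and part of its span with Eef1d, Nmnat3 with Gm28530 and Gm68743, Nmnat2 with Gm70811, and Cd38 with Gm16014. Every member but Nampt and Naprt overlaps a gene on the other strand, and Nampt overlaps none on either. The coordinates given are those of the count table, and those of the annotation differ for all 9. The strand setting of the counting is not stated, so reads in shared spans are uncertain for all members but Nampt.

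The promoters of the 3 genes that moved most among the 8 members tested in male liver are shown because the first rose and the others fell. They come from the RefSeq table of 300 bases around each gene start (250 before to 50 after, build GRCm38.p6), which matched 7 of the 9 members by symbol, all but Naprt and Nnmt. Capitals mark matches, on either strand, to CACGTG (an E-box, in 7.15% of 32851 promoters), GGGCGG (a GC box, in 35.7%), CCAAT (in 37.4%) and TATAAA (in 13.6%). No match overlapped another.
Nampt, chr12:32820085-32820384, plus strand: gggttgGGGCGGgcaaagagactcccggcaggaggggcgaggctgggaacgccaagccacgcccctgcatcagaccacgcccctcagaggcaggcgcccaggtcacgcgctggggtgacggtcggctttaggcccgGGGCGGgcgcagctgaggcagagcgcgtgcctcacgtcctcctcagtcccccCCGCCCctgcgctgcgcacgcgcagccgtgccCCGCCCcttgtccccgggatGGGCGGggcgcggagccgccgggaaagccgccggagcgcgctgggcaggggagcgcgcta
Nmnat3, chr9:98296320-98296619, plus strand: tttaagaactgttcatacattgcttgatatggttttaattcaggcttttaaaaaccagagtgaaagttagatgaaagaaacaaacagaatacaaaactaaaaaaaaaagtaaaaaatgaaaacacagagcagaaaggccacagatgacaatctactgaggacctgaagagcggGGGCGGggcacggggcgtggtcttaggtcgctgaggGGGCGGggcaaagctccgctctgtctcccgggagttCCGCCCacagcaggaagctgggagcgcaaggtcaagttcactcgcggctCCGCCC
Qprt, chr7:127121980-127122279, minus strand: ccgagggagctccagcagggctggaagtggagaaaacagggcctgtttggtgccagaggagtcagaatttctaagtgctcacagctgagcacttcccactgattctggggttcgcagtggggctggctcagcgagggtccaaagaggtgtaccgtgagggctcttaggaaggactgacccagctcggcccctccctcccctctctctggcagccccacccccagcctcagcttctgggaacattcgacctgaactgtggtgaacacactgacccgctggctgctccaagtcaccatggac

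Nampt had 5 matches, all to GGGCGG, and Nmnat3 had 4, also all to GGGCGG, while Qprt had 0 to any of the 4 motifs in this window. Of the 9 promoter entries of the members, 1 held CACGTG, the second entry of Nadk (chr4:155563565-155563864, plus strand). Such a match is a description of the letters and was not tested for binding.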

How the data were processed

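RNA from liver, muscle and cortex of AL and IF mice was sequenced with a directional kit. The authors aligned the reads to mm39 with HISAT2 and deposited counts per gene from featureCounts, which were used as they are. Library totals lay between 26097314 and 49838004 counts. Mice 1 to 16 (male) and 25 to 40 (female) were fitted apart in each tissue, IF against AL, with edgeR 4.0.16 in R 4.3.3: TMM scaling, filterByExpr (count minimum 10), a robust quasi-likelihood test, and Benjamini-Hochberg adjustment over all genes tested, with a threshold of 0.05. Adjusted p values in the text come from these tests. CPM are counts over TMM-scaled totals within a tissue. SE is the size of the log2 fold change over the square root of F. Differences in response between sexes and between tissues were tested as interactions, the latter with the library number as a block. Libraries with the same number were taken to come from the same mouse, which the labels do not state, and they hardly correlated between tissues (median r from 0.007 to 0.028). AL and IF mice share only replicate numbers and were not paired.

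The 9 members and the gene lists were chosen with earlier results of these data known. The genes named are the members, the genes of the lists, the genes that overlap a member on its strand and, for each member, the 3 genes nearest over the 12 groups. Nnt has 2 entries in the table, of which the one with more counts was used. Library AL replicate 1 of male cortex was left out because its sex genes go against its label. Alternatives were DESeq2 1.42.0, RLE scaling, other filters, a replicate block, leaving out AL mouse 2 and IF mouse 10 (male mice), and adding the omitted library. Leaving out each library in turn was chosen after seeing the data. Tests were also checked on simulated data, with 2-fold changes set in genes whose counts lay well above the filter. This check does not cover smaller changes or genes with few counts.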

Additional observations from a re-analysis of the deposited data

Results flagged for a closer look

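Single libraries stood far from the others of their group in 11 of 91 groups of values, where chance gives about 1 in 20. In female IF liver these were Nampt at 126 CPM (mouse 37; nearest other 90.2), Nmnat1 at 16.6 CPM (mouse 34; 21.2) and Nnmt at 169.7 CPM (mouse 39; 108.5). In other livers they were Cd38 at 15.8 CPM in male AL mouse 2 (nearest other 12.5) and at 19.7 CPM in female AL mouse 28 (11.02). The liver of mouse 28 also had the highest sum of 10 leukocyte markers in its group, 449 CPM against 82 to 146 CPM in the others, with Lyz2 the most abundant in the group and none at 0 throughout. The part of these cells in its Cd38 level was not tested. In muscle they were Nadk at 40.1 CPM in male IF mouse 12 (28.1) and at 22.1 CPM in female IF mouse 34 (19.1), and Naprt at 11.04 CPM in male AL mouse 1 (8.05). In cortex they were Nmnat3 at 3.31 CPM in male AL mouse 6 (2.26), Nadk at 73.5 CPM in male IF mouse 10 (66.7) and Naprt at 12.7 CPM in female IF mouse 36 (9.83).

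The diet response differed by sex (log2, female minus male, edgeR interaction) in liver for Nampt (-1.69), Nmnat1 (0.55), Nmnat3 (1.35) and Qprt (1.26), in muscle for Nadk (-0.46) and in cortex for Nmnat3 (-0.79). In male mice it differed between liver and muscle for Nampt (1.88), Nmnat1 (-0.52), Nmnat2 (1.99) and Nmnat3 (-1.54), between liver and cortex for Nampt (2.11), Nmnat1 (-0.61), Nmnat2 (1.67) and Nmnat3 (-2.28), and between muscle and cortex for Nmnat3 (-0.74). The Nmnat2 values are not read as differences, since male AL liver had 0 to 15 reads of it and the gene was not tested there alone. The cortex sex difference of Nmnat3 was not called without a filter or with the replicate block, and its muscle against cortex difference was not called without a filter or without the mouse block.

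The omitted library, AL replicate 1 of male cortex, had Xist at 216 CPM, where the other male cortex libraries had at most 0.230 CPM. The source of this signal was not tested. The members had 33.4 (Nampt), 5.92 (Nmnat1), 178 (Nmnat2), 2.41 (Nmnat3), 7.73 (Naprt), 0.676 (Nnmt), 61.7 (Nadk), 0.106 (Qprt) and 1.97 CPM (Cd38) in it.

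These data are RNA levels in bulk tissue, so enzyme activity, NAD and cell numbers were not measured. The male mice were killed over several hours around the end of the fast and the hour of each is not given, so effects of the hour, the last fast and the whole regimen cannot be told apart. The sexes are also separate sets of mice.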

How the results depend on the processing

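Of 64 counts of members under other processing choices, 55 kept their value or stayed within 1.5 times, and 9 moved. The count for male muscle became 2 without AL mouse 2 and IF mouse 10, where Qprt was gained (log2 fold change -0.96, adjusted p = 0.0364). The count for male cortex became 0 without a filter, with the replicate block, without AL mouse 2 and IF mouse 10 (6 AL and 7 IF mice, as the omitted library was already out) and with the omitted library, since Nmnat3 lost its call (0.51 to 0.54, adjusted p = 0.0618 to 0.114). For the sex difference in cortex the count became 0 without a filter and with the replicate block. For muscle against cortex in male mice it became 0 without a filter and without the block on library number. The correlations do not settle whether libraries of the same number come from the same mouse. A library correlated best with its own number, among those of its group in the other tissue, in 2 to 5 of 15 or 16 pairs. The median r was 0.007 to 0.028, above 0 for every pair of tissues in both sexes. The cause of these changes in the counts was not tested. Over all genes, the 1332 calls in male cortex became 294 with the omitted library, 382 with the replicate block, 498 without these 2 mice and 2259 with DESeq2. DESeq2 called 6, 91 and 73 genes in female liver, muscle and cortex, where edgeR called 0, 1 and 2.

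Leaving out 1 library at a time, chosen after seeing the data, gave counts of 4 to 5 in male liver, 1 to 2 in male muscle, 0 to 1 in male cortex and 0 in each female tissue. Nmnat2 was gained in male liver without AL replicate 6 or IF replicate 8, and Qprt in male muscle without AL replicate 2. Nampt, Nmnat1, Nmnat3 and Qprt in male liver and Nadk in male muscle passed in each of their 16 fits.

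Of 503 values of single genes, 488 kept direction and side of the threshold. Direction changed for Nmnat1 in male muscle (0.0074, without these 2 mice), Nnmt with the replicate block in male cortex (-0.021) and female liver (0.028), and Naprt in female cortex (-0.0016 without a filter, -0.0012 with the block), none of which was called. Naxe and Parp9 in male liver lost their call without these 2 mice, and Tnks2 in male cortex lost it with the block, without these 2 mice or with the omitted library.

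AL and IF libraries with the same replicate number did not deviate together in every pair (median r from -0.086 to 0.078 over the tissues and sexes), and not every sample correlated best with its own number. The block changed no other call of a member. Depth limits Nmnat2 in liver and muscle and Qprt and Nnmt in cortex, with 55 counts or fewer per library. It also limits Qprt in muscle, with 12 to 68 counts in male AL and 3 to 34 in male IF libraries. The gained calls of Qprt in male muscle rest on such counts.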
